A study of Mus musculus with 7 samples.

Results

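The genes described here mark the mammillary bodies and the posterior hypothalamus, at the caudal end of the hypothalamus. They are the transcription factor genes Foxb1, Foxa1, Lmx1a, Lmx1b, Lhx5 and Barhl1, together with Hdc, which encodes an enzyme and marks the histamine neurons of the same region. Members were all probe sets that the annotation of the mouse430_2 array assigns to 1 of these symbols and to no other gene. That rule found 10 probe sets for 7 genes, of 45037 probe sets and 18193 genes tested. The rule uses no expression value, but the 7 genes were chosen with earlier results of these data known.

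Expression was measured in whole hypothalamus of mice aged 3 months, with 1 array per sample. The 4 wild-type arrays were compared with 3 arrays of mice labelled Creb-PomcCre-/-, in which a Cre recombinase driven by Pomc deletes Creb, the cyclic AMP-responsive transcription factor. The comparison asks which hypothalamic genes lie downstream of Creb in the appetite-regulating Pomc neurons of the arcuate nucleus. Pomc-driven Cre is aimed at a small set of arcuate cells, and where it acted was not measured here. The wild-type labels do not say whether those mice carried Cre or a floxed allele. Samples are called biological replicates in the labels. Whether each held RNA of 1 mouse or a pool is left unsaid there, so p-values measure the spread between these samples. In whole tissue, fewer cells of a type and less RNA per cell cannot be told apart. Creb1, the targeted gene, had 6 probe sets, of which 0 passed the threshold. The brightest read 9.44, 9.57, 9.40 and 9.56 in wild type and 9.42, 9.46 and 9.47 in the knockout. The 6 differences ran from -0.11 to 0.18 on the log2 scale (limma, adjusted p from 0.467 to 0.946). Where these probes lie relative to the deleted exons was not known here, and Cre is aimed at few cells of this tissue. Creb1 is therefore no check of the labels.

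Foxb1, a forkhead factor of the developing and adult mammillary bodies, is required for the mammillary tract to the thalamus. Foxa1 is a forkhead pioneer factor that, with the LIM-homeodomain factors Lmx1a and Lmx1b, specifies floor-plate derived neurons of the ventral midbrain and the adjoining posterior hypothalamus. Lhx5 is a LIM-homeodomain factor of the embryonic forebrain that is expressed in the mammillary region, and Barhl1 is a Bar-class homeodomain factor of the posterior hypothalamus and of cerebellar granule cells. Hdc encodes histidine decarboxylase, which makes histamine, and the tuberomammillary nucleus is the source of neuronal histamine in the brain.

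Start-site upstream sequence is shown for the member promoters that held a motif searched, since Creb binds cyclic AMP response elements and Foxa1 is itself a forkhead factor. RefSeq promoters (GRCm38.p6) were available for 5 of the 7 genes, 6 promoters in all, and the 250 bases before each start were read. Foxb1 and Lhx5 had no entry. The Foxa1 sequence is chr12:57546112-57546361 on the minus strand, with the forkhead core in capitals. Those of Lmx1b (chr2:33641099-33641348, minus strand) and Barhl1 (chr2:28916669-28916918, minus strand) have the short core of the cyclic AMP response element in capitals.
Foxa1: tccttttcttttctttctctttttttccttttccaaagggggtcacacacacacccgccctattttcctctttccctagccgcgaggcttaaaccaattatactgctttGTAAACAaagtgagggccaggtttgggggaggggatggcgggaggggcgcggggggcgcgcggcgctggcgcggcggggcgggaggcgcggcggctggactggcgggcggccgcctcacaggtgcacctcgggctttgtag
Lmx1b: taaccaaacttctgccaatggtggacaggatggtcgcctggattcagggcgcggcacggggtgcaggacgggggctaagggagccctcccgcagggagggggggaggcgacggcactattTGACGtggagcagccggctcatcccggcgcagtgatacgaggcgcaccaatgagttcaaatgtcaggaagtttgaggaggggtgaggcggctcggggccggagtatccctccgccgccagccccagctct
Barhl1: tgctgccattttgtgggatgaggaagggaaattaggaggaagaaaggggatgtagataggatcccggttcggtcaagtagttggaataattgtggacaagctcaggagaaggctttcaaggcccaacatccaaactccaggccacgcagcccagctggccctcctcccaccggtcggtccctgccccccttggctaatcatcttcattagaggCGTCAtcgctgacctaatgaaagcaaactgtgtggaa

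The full element TGACGTCA was in 0 of the 6 member promoters and in 1.55% of all 32851 promoters over the same 250 bases. Its short core TGACG, searched on both strands and contained in the full element, was in 2 of the 6 and in 17.8% of all. It began 130 bases before the Lmx1b start and 37 bases before the second listed Barhl1 start, read on the other strand as CGTCA. The forkhead core TGTTTAC was in the Foxa1 promoter, 141 bases before its start and read on the other strand as GTAAACA. It was in 3.17% of all promoters, both strands read. The homeodomain core TAATTA (4.84% of all) and the TATA box TATAAA (12.4% of all) were in 0 of the 6, both strands read. These are matches of letters, and a window without a match says nothing of the factor.

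Of the 10 member probe sets 0 passed the threshold, an adjusted p of 0.05 (limma), beside 3 of 45037 probe sets in the whole table, or 0.00666% (0.00444% higher and 0.00222% lower in the knockout). Every member probe set had a knockout minus wild-type difference above 0, as did 53.2% of all probe sets. Lmx1b, Barhl1 and Hdc gave 2 probe sets each, and by gene 7 of 7 were above 0, beside 51.5% of all genes. The members were chosen with earlier results of these data known, so these counts are no test. The median difference was 0.11 on the log2 scale over the members and 0.0084 over all probe sets. It was 0.046 for the members without wild-type array 2. The members' differences ran from 0.0055 for Lmx1a to 0.31 for Foxa1. An unadjusted p under 0.05 was reached by Foxb1 and Foxa1, 2 of 10, beside 10.6% of all probe sets (5.55% higher in the knockout). The groups did not overlap for 1 of the 10, Foxb1, beside 11.0% of all probe sets (6.02% higher in the knockout). Of the 10, 5 had a mean above the median of all probe sets (6.22 on the log2 scale). The Foxb1 and Lmx1a probe sets, both of Barhl1 and the dimmer one of Lmx1b lay below it. The values carry no detection call, so signal at these low levels cannot be separated from the chip's background.

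**Figure D1:**
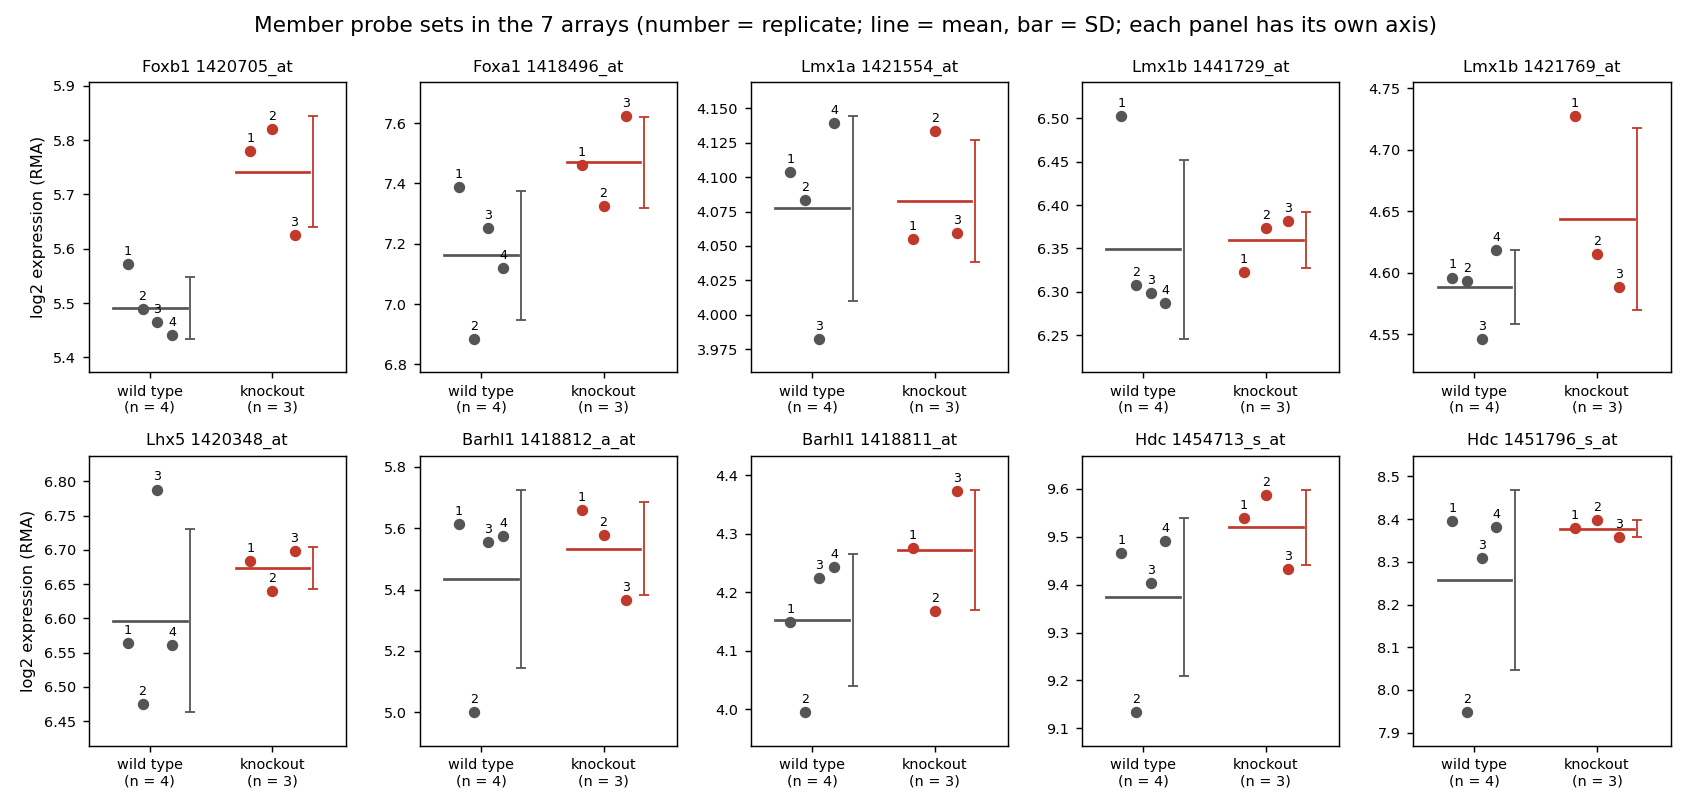
Deposited log2 expression of the 10 member probe sets in each array, with wild type in grey (n = 4) and knockout in red (n = 3); numbers are replicates, lines are group means and bars are SD, and each panel has its own axis. Only in the Foxb1 panel do all 3 knockout arrays lie above all 4 wild-type arrays, and wild-type array 2 is the lowest point in 6 panels.

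Foxb1 read 5.57, 5.49, 5.46 and 5.44 in wild-type arrays 1 to 4 and 5.78, 5.82 and 5.63 in knockout arrays 1 to 3, as log2 levels. The lowest knockout array thus lay above the highest wild-type array. Wild type averaged 5.49 ± 0.057 (SD, n = 4) and the knockout 5.74 ± 0.10 (SD, n = 3). The difference of 0.25 ± 0.077 (SE), or 1.19-fold with a 95% interval of 1.05 to 1.34, was not past the threshold (limma, unadjusted p = 0.00969, adjusted p = 0.351). With single arrays left out the Foxb1 difference ran from 0.21 to 0.31. It was 0.25 without wild-type array 2, the array that stood apart for other members. Its mean level was below the median of the table.

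Foxa1 had the largest difference of the 10 probe sets. Its log2 level was 7.39, 6.89, 7.25 and 7.12 in the wild-type arrays and 7.46, 7.33 and 7.62 in the knockout arrays. Wild-type array 2 was the lowest and knockout array 3 the highest, and wild-type array 1 lay above knockout array 2. Means were 7.16 ± 0.21 (SD, n = 4) and 7.47 ± 0.15 (SD, n = 3). The difference was 0.31 ± 0.12 (SE), 1.24-fold with a 95% interval of 1.02 to 1.5 (limma, unadjusted p = 0.031, adjusted p = 0.427). Without wild-type array 2 it was 0.22 ± 0.10 (SE), with an adjusted p of 0.609 (limma).

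Foxa1 is also expressed by midbrain dopamine neurons, and markers of those cells varied between arrays of both groups. Of 10 such markers 8 had a difference above 0, with a median of 0.11 and 0 past the threshold. That median was 0.035 without knockout array 3, 0.048 without wild-type array 2 and 0.17 without wild-type array 3. Their mean log2 level ran from 6.96 to 7.38 in wild type and from 6.97 to 7.45 in the knockout. The dopamine transporter gene Slc6a3, chosen after its values were seen, read 7.82, 6.81, 9.38 and 6.88 in wild type and 7.35, 6.73 and 9.36 in the knockout. It was thus highest in wild-type array 3 and knockout array 3. Knockout array 3, with the highest Foxa1 value, was 1 of the 2 arrays with the highest Slc6a3 values. Wild-type array 3, with the highest Slc6a3 value, read 7.25 for Foxa1, below 7.39 in wild-type array 1, where Slc6a3 read 7.82. The part of these cells in the Foxa1 difference was not tested. Of the 3 dopamine markers with the smallest p, Aldh1a1 differed by -0.48, Pitx3 by 0.13 and Th by 0.23, with adjusted p from 0.477 to 0.575 (limma).

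The Lmx1a probe set showed little variation. It read 4.10, 4.08, 3.98 and 4.14 in wild type and 4.06, 4.13 and 4.06 in the knockout, so the knockout arrays lay within the wild-type range. The log2 difference of 0.0055 ± 0.066 (SE) had a 95% interval of -0.14 to 0.15 (limma, adjusted p = 0.983). The level was in the lowest 18.7% of probe sets.

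Lmx1b, which in the hindbrain is also needed by serotonin neurons, had 2 probe sets that did not vary together. The brighter, 1441729_at, read 6.50, 6.31, 6.30 and 6.29 in wild type and 6.32, 6.37 and 6.38 in the knockout. Wild-type array 1 was above all other arrays, which spanned less than 0.1, and the difference was 0.010 ± 0.076 (SE) with a 95% interval of -0.16 to 0.18 (limma, adjusted p = 0.972). The dimmer, 1421769_at, read 4.60, 4.59, 4.55 and 4.62 in wild type and 4.73, 4.62 and 4.59 in the knockout, with knockout array 1 highest. It differed by 0.055 ± 0.068 (SE), with a 95% interval of -0.097 to 0.21 (limma, adjusted p = 0.8), and by 0.013 without knockout array 1. After the group means were subtracted, the correlation between these 2 probe sets over the 7 arrays was -0.16. The serotonin neuron markers, 6 measured, had a median difference of -0.025, which ran from -0.058 without wild-type array 2 to 0.0012 without wild-type array 1. Tph2, which makes serotonin in neurons and was named after its values were seen, lay between 3.12 and 3.70 in every array.

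Lhx5 read 6.56, 6.47, 6.79 and 6.56 in wild type and 6.68, 6.64 and 6.70 in the knockout. Wild-type array 3 was the highest and array 2 the lowest of all 7, so that the knockout arrays lay inside the wild-type range. The difference was 0.077 ± 0.084 (SE), with a 95% interval of -0.11 to 0.27 (limma, adjusted p = 0.769). It was 0.036 without wild-type array 2 and 0.14 without wild-type array 3.

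Barhl1 had 2 probe sets, and wild-type array 2 was the lowest array in both. The brighter, 1418812_a_at, read 5.61, 5.0, 5.55 and 5.57 in wild type and 5.66, 5.58 and 5.36 in the knockout. Apart from wild-type array 2 the wild-type values lay between the lowest and the highest knockout array. The difference was 0.098 ± 0.15 (SE), with a 95% interval of -0.25 to 0.44 (limma, adjusted p = 0.845). It was -0.046 without wild-type array 2, so its sign rested on that array.

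The dimmer Barhl1 probe set, 1418811_at, read 4.15, 3.99, 4.22 and 4.24 in wild type and 4.28, 4.17 and 4.37 in the knockout. It differed by 0.12 ± 0.085 (SE) (limma, adjusted p = 0.634), and by 0.068 without wild-type array 2. Knockout array 3 was lowest among the knockout arrays in 1 probe set and highest in the other. Of the 7 cerebellar granule cell markers measured, 6 were below 0, with a median difference of -0.21 (-0.13 without wild-type array 2, and -0.37 when knockout array 2 was dropped). Gabra6, a granule cell receptor subunit gene chosen after its values were seen, read 5.91 in wild-type array 2. It read between 3.45 and 3.93 in the other arrays, so the array with the lowest Barhl1 values had the highest Gabra6 value. Cbln3, Neurod1, Zic1 and Zic2 of this list were also highest in that array, whereas Pax6 and Cdh15 were not. Pax6, with the smallest p of the list, differed by 0.21 and read 6.98 there and 7.02 to 7.21 in the knockout. Cdh15 read 6.79 there and 7.08 in knockout array 2. Apart from Pax6, these markers were also named after their values were seen.

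Hdc, the marker of histamine neurons, was measured by 2 probe sets, both of a type whose probes can match several transcripts. The brighter, 1454713_s_at, read 9.47, 9.13, 9.40 and 9.49 in wild type and 9.54, 9.59 and 9.43 in the knockout. Wild-type array 2 was the lowest of the 7, and 2 of the 3 knockout arrays lay above every wild-type array. Means were 9.37 ± 0.16 (SD, n = 4) and 9.52 ± 0.079 (SD, n = 3). The difference of 0.15 ± 0.087 (SE), 1.11-fold with a 95% interval of 0.966 to 1.27, did not pass (limma, adjusted p = 0.573). Without wild-type array 2 it was 0.065 ± 0.056 (SE) (limma, adjusted p = 0.764).

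The other Hdc probe set, 1451796_s_at, read 8.40, 7.95, 8.31 and 8.38 in wild type and 8.38, 8.40 and 8.36 in the knockout. With wild-type array 2 set aside, the 6 other values lay between 8.31 and 8.40. The difference of 0.12 ± 0.10 (SE) (limma, adjusted p = 0.706) became 0.016 ± 0.055 (SE) without that array. The correlation of the Hdc probe sets after subtraction of group means was 0.95 over 7 arrays and 0.76 without wild-type array 2. Mast cells also make histamine through Hdc. Of 9 mast cell markers 6 were above 0, with a median difference of 0.0080 (from -0.011 without wild-type array 4 to 0.067 without wild-type array 1). Their mean log2 level was 5.07 to 5.19 in wild type and 5.14 to 5.15 in the knockout.

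**Figure D2:**
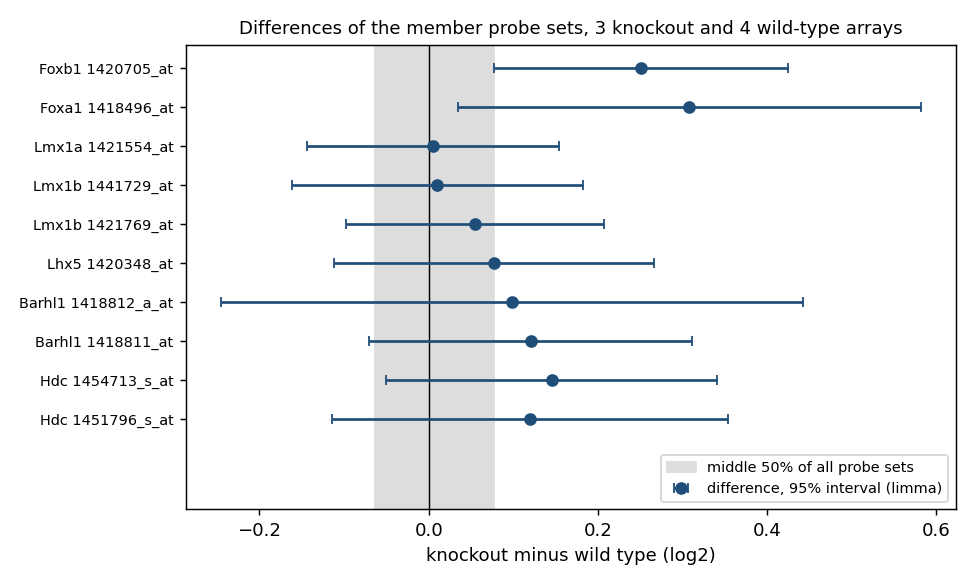
Knockout minus wild-type log2 difference of each member probe set (points) with limma's 95% interval (bars), over 3 knockout and 4 wild-type arrays; the grey band runs from the lower to the upper quartile of all 45037 probe sets, -0.063 to 0.078. Intervals of Foxb1 and Foxa1 lie above 0 before adjustment for the number of probe sets, and the other 8 include 0.

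Wild-type array 2 was the lowest of all 7 arrays for 6 of the 10 probe sets, those of Foxa1, Lhx5, Barhl1 (both) and Hdc (both). For those 6 it lay below the mean of the other wild-type arrays by between 0.16 (Lhx5) and 0.58 (Barhl1, 1418812_a_at) on the log2 scale. Its Foxb1 value was within 0.0039 of the mean of the other wild-type arrays. Wild-type arrays 3 and 4 were each lowest for 2 probe sets, so no knockout array was lowest for any member. Leaving wild-type array 2 out lowered the number of probe sets above 0 from 10 to 8, as leaving out wild-type array 3 also did. Without wild-type array 2, Barhl1 1418812_a_at was at -0.046, and Lmx1b 1441729_at moved only from 0.010 to -0.0034. The differences of Hdc 1451796_s_at and Lhx5 fell to 0.016 and 0.036 without that array.

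Other marker lists set this array apart as well. List scores are the median over genes of each array's deviation from the mean of the 7 arrays, on the log2 scale. The 13 thalamus and habenula markers scored 0.88 in wild-type array 2, where the other wild-type arrays scored -0.14 to 0.15, with -0.26 to 0.10 in the knockout. The granule cell list scored 0.95 there and below 0 in the other arrays. The 14 measured genes that define the hypothalamus, among them Hcrt, scored -0.26 there, while the remaining wild-type arrays scored 0.00 to 0.13. Wild-type array 3 had the highest score for meninges and fibroblasts, 1.21, with 0.45 in wild-type array 2 and at most -0.32 in the other arrays. The part of neighbouring tissue in the member differences was not tested.

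**Figure D3:**
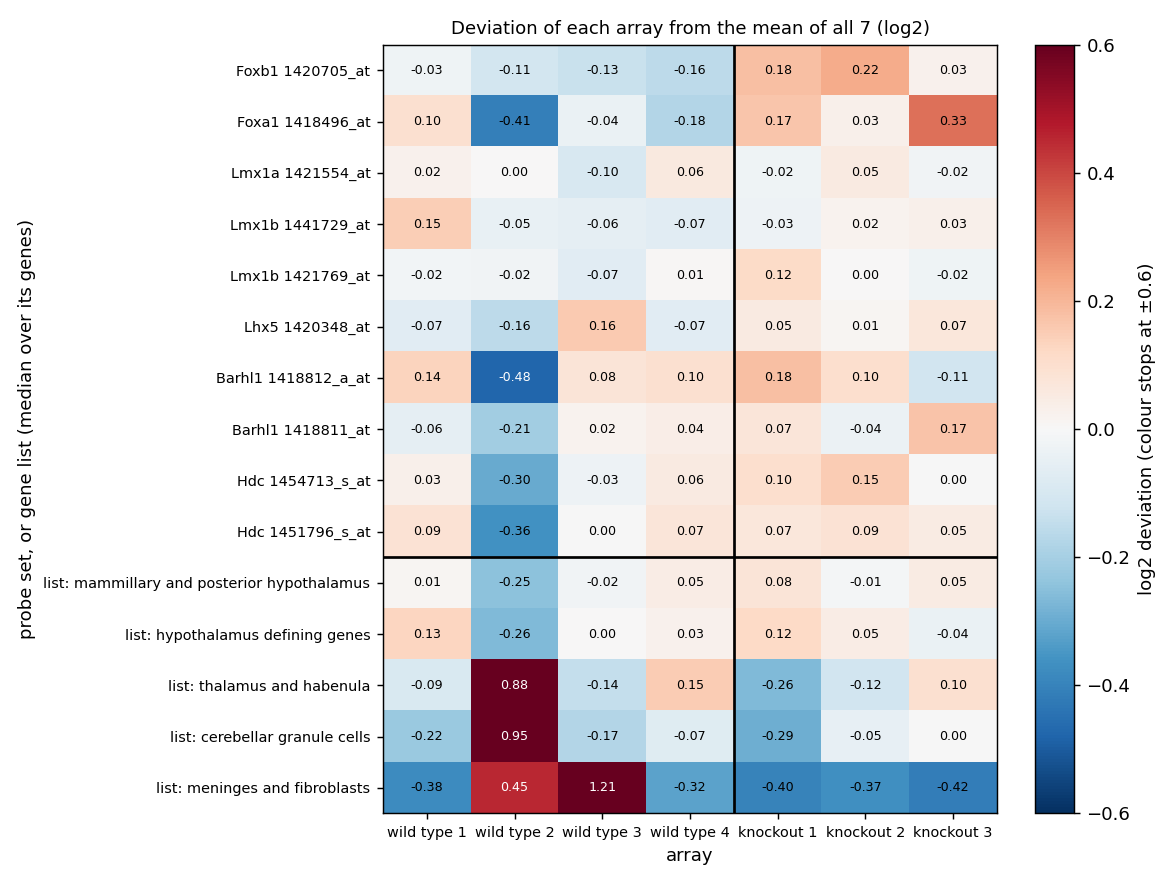
Log2 deviation of each array (columns) from the mean of the 7 arrays for the member probe sets (upper rows) and, as the median over genes, for 5 gene lists (lower rows); blue is below and red above the mean, and the colour scale stops at 0.6. Wild-type array 2 is blue for Foxa1, Barhl1 and Hdc and dark red for the thalamic and granule cell lists.

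The labels give no sex, so it was taken from Xist and the Y-linked transcripts. Wild-type arrays 2 and 3 and knockout arrays 2 and 3 were male, and wild-type arrays 1 and 4 and knockout array 1 were female. Within males the 10 probe sets were all above 0 in the knockout, with a median of 0.18, and within females 7 were above 0, with a median of 0.073. The female comparison rests on 1 knockout array, and the male one on wild-type arrays 2 and 3, which stood apart for other marker lists. Shares over all probe sets within each sex are not given here, so these counts have no background beside them. Lmx1b, Barhl1 and Hdc each count with 2 probe sets. Foxb1 differed by 0.27 within females and by 0.25 within males, and Foxa1 by 0.21 and 0.41. The brighter Hdc probe set differed by 0.060 within females and by 0.24 within males, where wild-type array 2 lies.

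**Figure D4:**
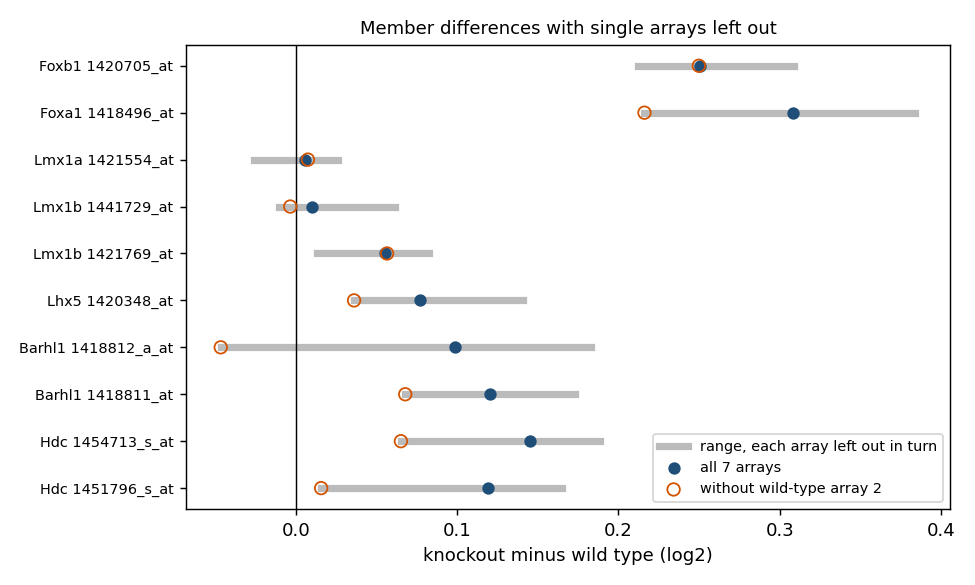
Knockout minus wild-type log2 difference of each member probe set with all 7 arrays (filled points), without wild-type array 2 (open circles) and over the 7 fits that each leave out 1 array (grey bars). Foxb1 stays at 0.25 without wild-type array 2, whereas Barhl1 1418812_a_at moves from 0.098 to -0.046.

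The next genes come from lists of the same region and pathways, each gene measured by its brightest probe set. None of the genes in these lists passed the threshold over all 18193 genes, where 2 genes did (0.0110%). Of 19 other measured factors and signals of the mammillary and posterior hypothalamus, 15 were above 0, with a median difference of 0.078, beside 51.5% and 0.0036 for all genes. Groups did not overlap for 2 of the 19, beside 12.1% of all genes (6.09% higher in the knockout). These were Emx2, a homeodomain factor, at 0.25 ± 0.081 (SE), and Nkx2-1, the factor that patterns the ventral hypothalamus, at 0.18 ± 0.069 (SE), with adjusted p of 0.328 and 0.38 (limma). Both had mean levels below the median of all probe sets, where signal cannot be separated from the chip's background. Uncx, a homeodomain gene, differed by 0.24 ± 0.14 (SE), and its lowest array was again wild-type array 2, at 6.05 where the other wild-type arrays read 6.52 to 6.62. The 4 genes below 0 were Lef1, Wnt8b, Foxp2 and Shox2, named after their values were seen. Shox2 read 10.43 in wild-type array 2 and 6.18 in wild-type array 1, and Lef1 is also a thalamic marker. The median of this list was 0.0079 without wild-type array 2, 0.028 without knockout array 3, 0.047 without knockout array 1 and -0.037 without wild-type arrays 2 and 3 together.

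Genes that handle or sense histamine showed small differences. Of the 10 measured, 6 were above 0, with a median of 0.048 (0.012 without knockout array 3), and 0 had an unadjusted p under 0.05, which 11.7% of all genes had. The receptor gene Hrh1 differed by 0.097 ± 0.046 (SE), the amine oxidase gene Maoa by 0.090 ± 0.047 (SE) and Hnmt, which methylates histamine, by 0.063 ± 0.039 (SE), with adjusted p from 0.452 to 0.548 (limma). Groups did not overlap for Hrh1 and Hnmt, 2 of the 10, beside 12.1% of all genes (6.09% higher in the knockout). Of the 2 probe sets each of Hrh1 and Maoa, 1 was above 0. Of 12 genes known from tuberomammillary neurons, 3 of them also in the histamine list, 5 were above 0, and the median was -0.040. Its sign turned with 1 array, from -0.069 without knockout array 3 to 0.015 without knockout array 1. When wild-type array 2, 3 or 4 was dropped, or knockout array 2, it lay between -0.024 and -0.0063. Groups did not overlap for 1 of the 12, beside 12.1% of all genes (6.09% higher in the knockout). This was Prph, an intermediate filament gene, at 0.20 ± 0.069 (SE) (limma, adjusted p = 0.344). It was also the 1 of the 12 with an unadjusted p under 0.05, beside 11.7% of all genes. Each of the 4 Prph probe sets was above 0. Gad2, which makes GABA, differed by -0.085 with 1 of its 2 probe sets above 0, and the peptide gene Gal by 0.13.

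Among 18 relatives of the members 10 were above 0, with a median of 0.076. It was 0.023 without knockout array 2, 0.026 without wild-type array 2, 0.035 without knockout array 3 and -0.072 with dim probe sets dropped. Isl2 differed by 0.21 ± 0.087 (SE), Gad2 by -0.085 ± 0.038 (SE) and Lhx6 by -0.54 ± 0.25 (SE), with adjusted p from 0.414 to 0.444 (limma). Of the 2 Lhx6 probe sets 1 was above 0. Foxa2, the closest relative of Foxa1, differed by 0.098, and Lhx1, that of Lhx5, by 0.11, both named after their values were seen. Of 10 genes for cofactors that bind LIM-homeodomain proteins 6 were above 0, with a median of 0.014 (from 0.0021 without wild-type array 1 to 0.028 without wild-type array 3). Ssbp2 differed by 0.083, with 2 of its 4 probe sets above 0, Lmo1 by 0.095 and Lmo2 by 0.12, with adjusted p from 0.471 to 0.614 (limma).

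For each member the 3 genes with the most similar array pattern were taken, by Pearson correlation of the 7 arrays after subtraction of group means, among genes above the median level. They were Exoc6b, Pum3 and Usp19 for Foxb1 (r from 0.988 to 0.992) and Nap1l4, Thyn1 and Ap4s1 for Foxa1 (0.980 to 0.994). They were Rngtt, Mmaa and Ftsj1 for Lmx1a, and Eif3i, Dstyk and Gatc for Lmx1b. For Lhx5 they were B4gat1, Foxn2 and Tmem200c. For Barhl1 they were the peptide gene Sst, Vps35l and Srm, whose r of 0.985 to 0.990 became 0.903 to 0.939 without wild-type array 2. For Hdc they were Mmd2, Gm10419 and Tmem179, with r of 0.976 to 0.981, and 0.869 to 0.896 without that array. Of the 9096 genes above the median level, between 43 and 145 reached an r of 0.9 with a given member. With 7 arrays that share tissue differences, these values describe the arrays.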

How the data were processed

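The authors deposited log2 expression values of 45101 probe sets on 7 Affymetrix mouse430_2 arrays, per the file headers 1 column per sample. The submitters' processing notes list R 2.10.0, affy and RMA, a method that usually makes the arrays' intensity distributions equal; no settings are given. Array medians lay between 6.19 and 6.24. The 64 control probe sets were left out. Probe sets with several symbols (932) or none (9160) named no gene, and matching 34741 single-symbol probe sets to RefSeq (GRCm38.p6) changed 0 symbols.

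The comparison used limma 3.58.1 under R 4.3.3 (lmFit and eBayes with an intensity trend, two-sided, Benjamini-Hochberg over all probe sets, or over 18193 genes by their brightest probe set). The fit was tested on 10 simulated data sets with 200 changed probe sets each and noise drawn independently for each probe set. The threshold was passed by 4.03% of changes of 0.25 on the log2 scale, 52.8% of those of 0.5 and 91.5% of those of 1. Most changes of 0.25 were thus missed in the simulation, and false calls averaged 3.7 per data set. The deposited arrays share tissue differences across probe sets, which the simulation left out, so these rates need not hold for them. SE and intervals are limma's, and SD is over arrays. The number of arrays limits the precision, with a median SE of 0.079 per probe set. Members and gene lists were chosen with earlier results of these data known. Named were all members, in some of the lists up to 3 genes by smallest p, and the 3 genes most alike to each member. Creb1 is given as the targeted gene, and names outside the rule are marked as chosen after their values were seen.

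Same-numbered arrays of the 2 groups deviated together (correlations of 0.258, 0.114 and 0.156 for numbers 1, 2 and 3), so the numbers were treated as pairs in an alternative fit over arrays 1 to 3. This pairing comes from the data and from no label. Each pair also shared a sex, and same-sex arrays of unlike number had correlations of 0.0103 to 0.0937. Other alternatives changed the variance model, a filter on dim probe sets, array weights, normalization, sex, choice of probe set and each array left out. Figures used matplotlib 3.10.9 in Python 3.11.15.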

Additional observations from a re-analysis of the deposited data

Results flagged for a closer look

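In 2 of the 10 wild-type groups of member values, a single array stood apart from the other 3 by more than Dixon's 95% critical value of 0.829, as a share of the group's range. Barhl1 1418812_a_at read 5.0 in wild-type array 2, with a gap of 0.904 of the range. Lmx1b 1441729_at read 6.50 in wild-type array 1, also with a gap of 0.904 of the range. Chance flags about 1 in 20 groups, and the 10 groups share the same 4 arrays. The 3 knockout arrays were too few for this test.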

How the results depend on the processing

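No member probe set passed under any of the 16 alternatives for probe sets. Adjusted p ran from 0.27 to 0.852 for Foxb1 and from 0.263 to 0.855 for Foxa1, and both kept their direction. With dim probe sets dropped, 5 of the 10 were tested. Over the table the count of 3 probe sets became 11 with robust eBayes and 5 with sex as a covariate. Without single arrays it ran from 3 to 46: 46 and 12 without wild-type arrays 1 and 2 in turn, and 16, 9 and 5 without knockout arrays 1, 2 and 3 in turn. The 2 genes became 7 with robust eBayes, 7 with array weights and 1 with the mean of a gene's probe sets. They ran from 2 to 21 without single arrays, with 21 and 6 when wild-type arrays 1 and 2 were dropped in turn and 8 when knockout array 1 was. The causes were not tested. Without wild-type arrays 2 and 3 together, an alternative added after the data were seen, 6 member probe sets were above 0. Lmx1a was then at -0.039, Lmx1b 1441729_at at -0.036, Barhl1 1418812_a_at at -0.060 and Hdc 1451796_s_at at -0.011.

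With the replicate number as a block, 0 member probe sets, 2 probe sets and 2 genes passed, no member call changed, and Lmx1b 1441729_at was at -0.010. Quantile normalization put Lmx1a at -0.026. Leaving out single arrays, Lmx1a ran from -0.026 to 0.026, Lmx1b 1441729_at from -0.010 to 0.062 and Barhl1 1418812_a_at from -0.046 to 0.18, and 8 to 10 member probe sets were above 0. The other member probe sets kept their sign under the alternatives run, except Hdc 1451796_s_at as given. Dim signal limits what Foxb1, Lmx1a, Barhl1 and the dimmer Lmx1b probe set can show. Lhx5 and Lmx1b 1441729_at, with mean log2 levels of 6.63 and 6.35, lay little above the median of 6.22.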
